A study of Mus musculus with 24 samples.

Results

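The comparison described here sets mice that carried both risk factors of the study against mice that carried neither, at the level of RNA in the striatum. The het stressed group (3 libraries) came from female C57BL/6 mice that were heterozygous for Cntnap2 and whose mothers went through variable stress on 7 days of pregnancy from embryonic day 12.5. The wild-type control group (3 libraries) came from female C57BL/6 mice with both Cntnap2 copies and unstressed mothers. These 6 libraries were chosen by genotype and prenatal condition in the sample labels, out of 12 RNA libraries and 24 samples in the series. The other 6 RNA libraries, from mice with 1 factor (het control and wild-type stressed, 3 each), entered the fits and are given where they bear on a result. Stressed dams carried wild-type and heterozygous embryos together, all pups were ear-tagged at postnatal day 12 and weaned at day 18, and brains were taken 2 hours after lights on, per the labels. The sources used here give neither the Cntnap2 allele nor the age at death. Each library is 1 mouse. As littermates may have entered the same group, the tests judge differences only against the variation among these animals.

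Cntnap2 encodes Caspr2, a neurexin-related adhesion protein that gathers Kv1 potassium channels beside the nodes of myelinated axons and is also found at synapses, and variants in its human counterpart have been linked to autism and epilepsy. The striatum consists mostly of medium spiny neurons, the GABA-releasing projection cells of the direct pathway (dopamine receptor Drd1) and the indirect pathway (Drd2 and the adenosine receptor Adora2a). Bundles of myelinated fibres cross it, it borders the lateral ventricle, and cortex, septum, pallidum and, further back, thalamus lie next to it, so a punch can hold oligodendrocytes, ventricle wall and tissue of these neighbours. The question is which transcripts differ when a heterozygous genotype and prenatal stress come together.

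All 10 striatal markers, among them Ppp1r1b (1740 to 2330 TPM), Penk (2190 to 2910 TPM) and Drd1 (85.4 to 135 TPM), were present in all 6 libraries. Depth was 21410135 to 23663789 expected counts in het stressed libraries and 17416745 to 18405376 in wild-type control libraries, so depth cannot be told apart from the groups. The wild-type control libraries differed from each other far more than the het stressed ones did, with a chi-square per gene of 53.4 to 176 between pairs against 10.8 to 14.8. The slope of log2 CPM, a count scaled to library size, on log2 gene length was -0.296, -0.0521 and 0.277 in wild-type control replicates 1 to 3, and 0.0653, 0.000272 and 0.0770 in het stressed replicates 1 to 3. Short genes were thus high in wild-type control replicate 1 and low in replicate 3, and the 3 het stressed libraries lay between them. Among the other libraries, het control replicate 1 had a slope of -0.366, and wild-type stressed replicate 2 had Xist, which female cells express, at 1.32 TPM, against 32.3 to 109 TPM in the 6 libraries compared.

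Cntnap2 itself, the targeted gene, did not show a lower RNA level that stood out from the spread. Its level per length was 45.49, 49.19 and 59.45 TPM in het stressed mice and 43.55, 40.29 and 55.11 TPM in wild-type controls. The groups overlapped, and the difference in log2(TPM + 1) was 0.15 (two-sided exact permutation p = 0.4, where 3 against 3 cannot go below 0.1). By counts, Cntnap2 was at 73.2, 68.7 and 80.0 CPM against 76.8, 73.9 and 112 CPM, a log2 fold change of -0.24 ± 0.22 (SE; edgeR quasi-likelihood test, adjusted p = 0.99999). The TPM scale shifts all genes tested, whose median difference on it was 0.142, and relative to that shift Cntnap2 differed by 0.0082. On log2(FPKM + 1) its difference was 0.0106 (exact permutation p = 0.9). The position of the allele in the transcript is unknown here, so the RNA level does not check the genotype labels. Without wild-type control replicate 3, the library of highest length slope, the count difference was -0.0446 and the TPM difference 0.28. With 1 factor, Cntnap2 was at 76.5, 58.2 and 70.5 CPM in het controls and 80.6, 82.7 and 130 CPM in wild-type stressed mice. Wild-type control replicates 1 and 2 lay within the CPM range of the het libraries. By TPM the groups with 1 factor overlapped, at 35.97 to 45.97 in het controls and 39.69 to 68.27 in wild-type stressed mice.

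Of 15955 genes tested, the edgeR quasi-likelihood test called 1 higher in het stressed mice (0.00627% of genes, Benjamini-Hochberg adjusted p under 0.05) and 0 lower (0.0%). The called gene was Gm6736, annotated as a pseudogene, whose reads could come from a near-identical copy elsewhere. It held 295, 334 and 238 counts in het stressed libraries and 0, 4 and 0 in wild-type control libraries, a ratio of 171 per total count (95% counting interval 66.7 to 630). The log2 fold change was 7.28 ± 0.60 (SE) with an adjusted p of 0.0133. Het control mice, without stress, held 373, 265 and 300 counts, and wild-type stressed mice held 0 in each library. Gm6736 was thus present in all 6 het libraries, whatever the prenatal condition, and almost absent in all 6 wild-type libraries. The call was lost with only the 6 libraries in the fit (adjusted p = 0.0955), without any of het stressed replicates 1 to 3 (0.106, 0.101 and 0.0836) and without wild-type control replicate 1 (0.0533), although the fold stayed at a log2 of 6.73 or more in all 6 fits that left out 1 library.

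A second predicted gene, Gm10800, followed the same order. Its counts were 26, 34 and 23 in het stressed, 46, 46 and 41 in het control, 3, 0 and 0 in wild-type control, and 0, 4 and 0 in wild-type stressed libraries. Het stressed mice thus held 21.9 times the wild-type control level (95% counting interval 7.23 to 108), but edgeR gave an adjusted p of 0.99999. DESeq2 (adjusted p = 0.0112), limma-trend on log2(TPM + 1) (0.00593) and limma-voom with sample weights (0.000565) called it. Reads of Gm10800 may also come from near-identical copies.

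At an unadjusted p under 0.05, 70 genes (0.439%) were higher and 134 (0.84%) lower. Together these 204 genes (1.28%) fall short of the share of 0.05 that this threshold passes on average when no gene differs. In 581 genes (3.64%) every het stressed library lay above every wild-type control library in CPM, and in 425 genes (2.66%) every one lay below, which makes 1006 genes (6.31%) in all. If the libraries of both groups were exchangeable, 3 against 3 would separate on average in a share of 0.1 of genes, counting both directions. The 1006 genes do not exceed that share. With other scalings the directions were more even, at 470 higher and 472 lower with relative log size factors, and 489 and 473 with upper-quartile scaling. Limma-voom with sample weights, which gives less weight to libraries that stand apart, called 26 genes higher (0.163%) and 23 lower (0.144%). Its calls included, beside the 2 predicted genes above, Tmem35b (log2 fold change -1.50, adjusted p = 0.00418), G530011O06Rik (1.31, 0.0044), Tpbg (0.47, 0.0272), Ugt8a (-0.45, 0.0365), Slc16a8 (-1.34, 0.044) and Kcns3 (-0.77, 0.044). On data simulated for this comparison, the edgeR fit found 30.5% of 200 genes changed 2-fold and 90.5% of those changed 4-fold. False calls numbered 4 and 11. The simulation gave each gene the spread typical of its level, with no spread of its own and no length slope of libraries. The real libraries differ in length slope, so these shares do not give the power of the real comparison. Even in the simulation, most 2-fold changes were missed with 3 mice per group.

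The 11 named lower genes, chosen for the smallest p, all had groups that did not overlap, but none passed the edgeR test (adjusted p = 0.99999 for each). Tmem35b was at 1.20, 0.920 and 1.25 CPM in het stressed and 3.46, 3.07 and 2.65 CPM in wild-type control libraries (log2 fold change -1.45 ± 0.34, SE). Wild-type stressed mice lay between the groups at 1.53 to 1.68 CPM, while het controls, at 1.07 to 3.13 CPM, reached into the range of both. Kcns3, a silent Kv channel subunit that alters the currents of Kv2 channels, was at 2.74, 3.80 and 2.49 CPM against 4.45, 5.30 and 6.10 CPM (-0.81 ± 0.20). Kcns3 was as low with either factor alone (2.88 to 3.18 CPM in het controls, 2.64 to 3.21 CPM in wild-type stressed mice), so the wild-type controls stood above all 9 other libraries. Rab37, a small GTPase of secretory vesicles, had the same layout, with 9.81, 9.20 and 6.60 CPM in het stressed and 18.7, 13.2 and 25.6 CPM in wild-type control mice (-1.17 ± 0.30), and 3.90 to 8.96 CPM with 1 factor.

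Slc16a8, a lactate transporter of choroid plexus and retinal pigment epithelium, was the lower gene with the smallest p. It was at 0.214, 0.334 and 0.323 CPM in het stressed and 1.32, 0.726 and 0.847 CPM in wild-type control libraries (-1.71 ± 0.35). Het control mice at 0.823 to 1.17 CPM and wild-type stressed mice at 0.573 to 0.814 CPM lay above all het stressed libraries, so here the low values were those of mice with both factors. Gstm2, a glutathione transferase, was at 0.942, 1.003 and 0.969 CPM against 2.31, 1.51 and 1.58 CPM (-0.88 ± 0.24). Car14, a membrane carbonic anhydrase, was at 15.9, 17.01 and 15.2 CPM against 22.7, 19.8 and 25.1 CPM (-0.49 ± 0.14). Hapln2, a link protein of the matrix at nodes of Ranvier, was at 44.5, 55.5 and 42.7 CPM against 84.5, 55.9 and 68.3 CPM (-0.55 ± 0.17), so its groups were separated by a narrow gap. The unnamed genes ENSMUSG00000092198.1 (-1.88 ± 0.55) and ENSMUSG00000091392.1 (-1.66 ± 0.49) were at 0.670 CPM or less in all 6 libraries.

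Of the 12 genes with the smallest p among the higher ones, 11 had groups that did not overlap. G530011O06Rik was at 11.3, 10.7 and 10.5 CPM in het stressed and 3.57, 4.35 and 6.15 CPM in wild-type control libraries (1.21 ± 0.33, SE). It was also above the controls in wild-type stressed mice (7.91 to 11.7 CPM) and in 2 of 3 het controls (5.38 to 14.7 CPM). Ndst4, which modifies heparan sulfate chains, was at 3.55, 8.57 and 3.69 CPM against 2.09, 1.90 and 2.31 CPM (1.33 ± 0.42), with het stressed replicate 2 far above the others. Map2k6, a kinase that activates p38, was at 9.38, 9.91 and 8.63 CPM against 6.59, 7.42 and 7.51 CPM (0.38 ± 0.12). Tpbg, a membrane glycoprotein that tempers Wnt signalling, was at 19.01, 18.4 and 20.7 CPM against 17.02, 13.6 and 14.5 CPM (0.36 ± 0.12). Both were higher than in all other 9 libraries, by small margins. Htr2a, the serotonin 2A receptor, was at 15.6, 15.2 and 11.8 CPM against 7.96, 12.6 and 9.14 CPM (0.52 ± 0.18), and its groups overlapped. The others were Ccdc116 (0.83 ± 0.27), Ermap (0.93 ± 0.30), 4931422A03Rik (2.01 ± 0.51), Gm10139 (1.02 ± 0.37) and 2810408I11Rik (0.95 ± 0.34), all at 2.31 CPM or less.

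**Figure D1:**
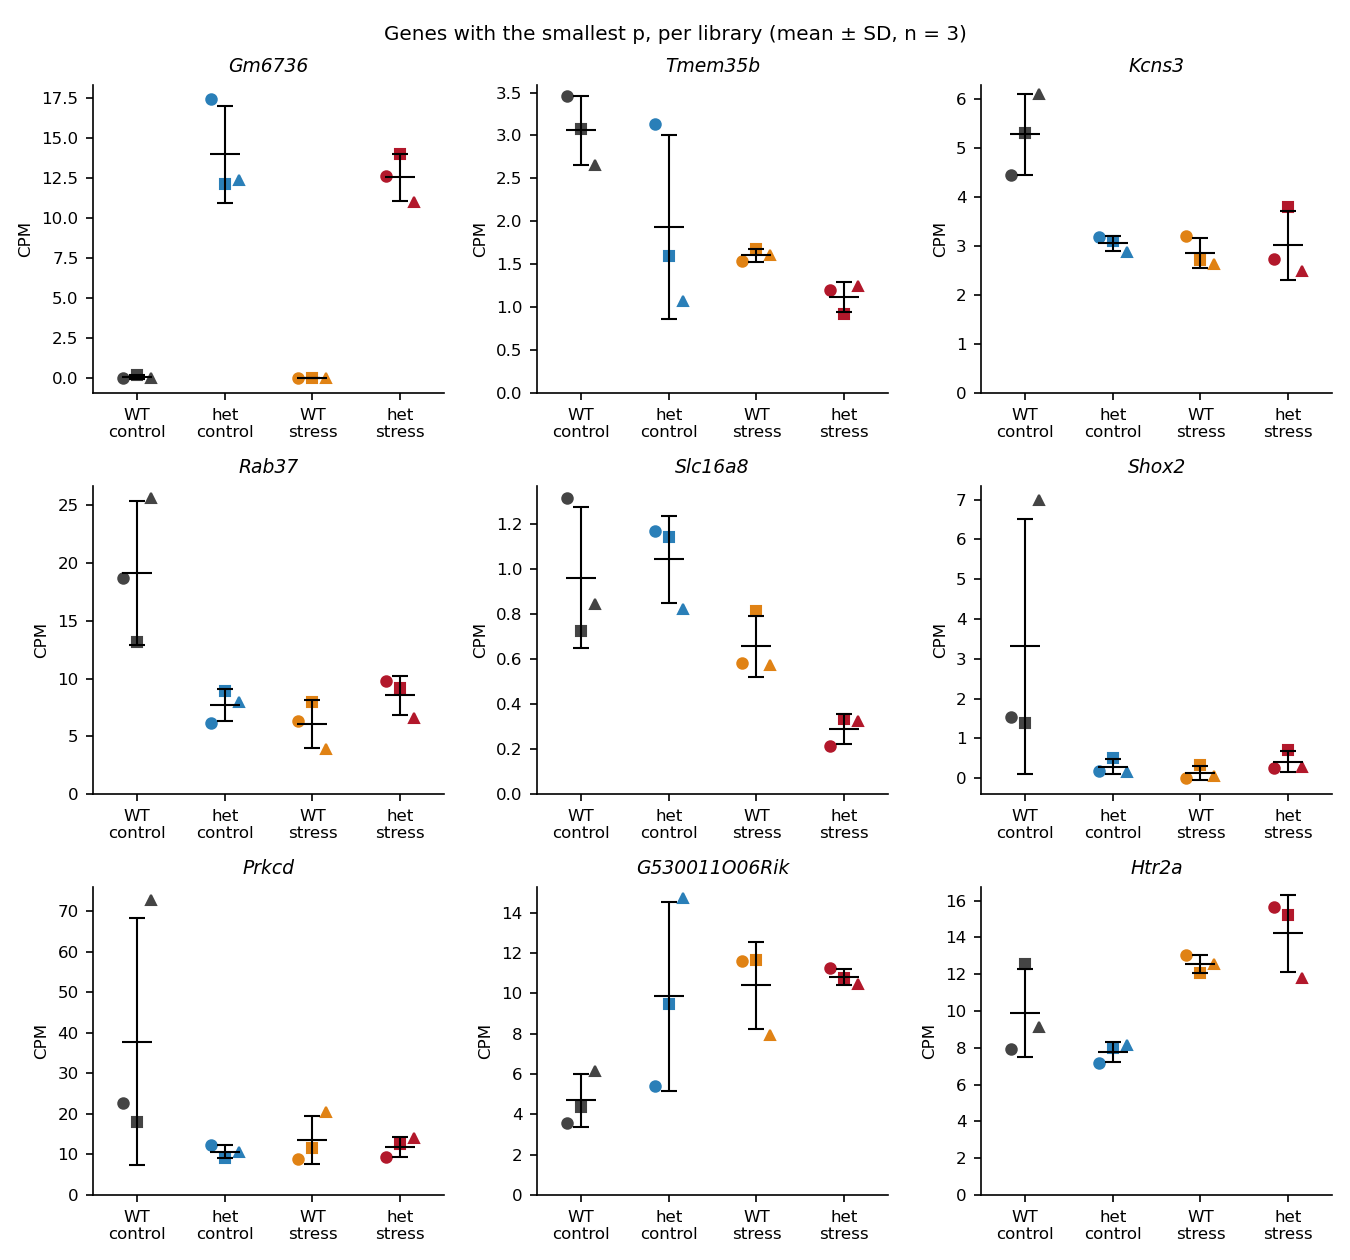
CPM of 9 genes (vertical axes, scaled counts) in each RNA library by group; symbols are libraries (a marker shape per replicate number) and black bars the mean ± SD of 3 libraries. Gm6736 is present in both het groups at 11.0 to 17.5 CPM, while in Kcns3 and Rab37 the wild-type controls lie above all other libraries.

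Whether both factors together differed from the sum of the single-factor differences was tested per gene as an interaction in the same edgeR fit. It called 0 of 15955 genes (0.0%), with 212 genes (1.33%) at an unadjusted p under 0.05, and DESeq2 also called none. The 1.33% is also below the share of 0.05 that this threshold passes on average when no gene differs. For the genes above, the interaction was 0.87 ± 0.29 for Kcns3, 1.80 ± 0.43 for Rab37, -1.28 ± 0.48 for Slc16a8, 0.15 ± 0.49 for Tmem35b and -1.01 ± 0.46 for G530011O06Rik (log2 ± SE, adjusted p over 0.05 for each). The single-factor comparisons share the wild-type control libraries with the one described here, so a control library that stands apart moves all of them together.

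Genes were next read by cell type and pathway in 37 lists, of which 693 of 720 entries were tested. A list is described by how many of its tested members were higher or lower in value, how many had groups that did not overlap, and its median log2 fold change, beside a median of -0.003 over all genes tested, of which 49.3% were higher and 50.7% lower in value. Groups did not overlap in 3.64% of all genes in the higher direction and in 2.66% in the lower. Every count of members without overlap below stands beside these shares. Beside Gm6736, which is in no list, no gene was called by edgeR, so no list holds a called gene. No list member with a row in the files was at 0 TPM in all 6 libraries. In bulk tissue, fewer cells of a type and less RNA per cell cannot be told apart.

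Genes of myelin and mature oligodendrocytes, the cells that wrap axons, were the list with the most members whose groups did not overlap. All 20 tested members were lower in het stressed mice in value, 10 of 20 had groups that did not overlap (2.66% of all genes did so in that direction), and 4 had an unadjusted p under 0.05. The median log2 fold change was -0.33 and ranged from -0.37 to -0.188 over the 6 fits without 1 library, the smallest without wild-type control replicate 3. It was -0.354 with the length slope as a covariate, again with 20 of 20 lower. On the log2(TPM + 1) scale it was -0.155, or -0.297 relative to the median of all genes on that scale. Gjb1 and Ugt8a had the smallest p in the list. Gjb1 encodes the gap junction protein connexin 32, and Ugt8a the enzyme that makes galactocerebroside, a main lipid of myelin. Their promoters are shown here as RefSeq gives them in GRCm38.p6, 250 bases before to 50 after the start, in the gene's own direction. If a gene has more than 1 start, only the first listed was used, so other promoters were not searched. Capitals mark ACAAAG, which with ACAATG was searched on both strands as a form of the core letters bound by SOX proteins such as SOX10, a regulator of myelin genes. Both strings begin with the same letters and each is distinct from the other.
Gjb1 (chrX:101376126-101376425, plus strand): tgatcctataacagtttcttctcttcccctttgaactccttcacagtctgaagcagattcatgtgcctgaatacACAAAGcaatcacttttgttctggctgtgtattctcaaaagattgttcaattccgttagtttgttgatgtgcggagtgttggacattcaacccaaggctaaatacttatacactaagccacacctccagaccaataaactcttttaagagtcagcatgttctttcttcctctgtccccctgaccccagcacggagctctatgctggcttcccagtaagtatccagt
Ugt8a (chr3:125938603-125938902, minus strand): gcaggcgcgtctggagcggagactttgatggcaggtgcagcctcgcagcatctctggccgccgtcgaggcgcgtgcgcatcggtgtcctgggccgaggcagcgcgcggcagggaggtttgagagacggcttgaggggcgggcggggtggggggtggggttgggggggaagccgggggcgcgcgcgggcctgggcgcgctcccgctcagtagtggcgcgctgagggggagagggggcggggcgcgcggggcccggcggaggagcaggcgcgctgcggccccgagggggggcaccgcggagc
The Gjb1 window holds 1 such match and the Ugt8a window none. Of the 20 genes in the list, 14 had a window of 300 bases to search, and the others were left out. A match was held by 6 of these 14 windows (42.9%), against 2264 of 11603 windows (19.5%) among all genes tested that had such a window. These counts describe letters and not binding.

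Gjb1 was at 36.0, 36.9 and 26.2 CPM in het stressed and 53.8, 47.8 and 45.05 CPM in wild-type control libraries (-0.56 ± 0.18, SE). Ugt8a was at 87.4, 81.8 and 74.7 CPM against 91.9, 113 and 116 CPM (-0.40 ± 0.15). In both genes every het stressed library lay below every control. Mog, a glycoprotein on the outer face of myelin, was at 164, 161 and 144 CPM against 211, 193 and 182 CPM (-0.32 ± 0.14). Mobp, a basic protein of compact myelin, was at 2243, 2578 and 2352 CPM against 3099, 3447 and 2806 CPM (-0.38 ± 0.18). Mbp, the main basic protein of myelin, was at 6594, 7515 and 5832 CPM against 8215, 9241 and 8028 CPM (-0.35 ± 0.21). Over all 20 tested members of the list, the differences ran from -0.564 to -0.0636. In the genes named here, whose levels differ widely, they lay between -0.56 and -0.32. The edgeR adjusted p was 0.99999 for each of these, and of the whole list limma-voom with sample weights called 1 gene, Ugt8a. Summed over the list, TPM spanned 10558 to 12337 in het stressed and 9861 to 15257 in wild-type control libraries, which overlap.

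Myelin genes were also lower in mice with 1 factor. With the shared wild-type controls as reference, the list's median was -0.33 with both factors, -0.29 with het alone and -0.50 with stress alone, and the median interaction was 0.47. Het stressed mice differed from het controls by a median of -0.01 and from wild-type stressed mice by 0.18, so the values with both factors were not lower than those with 1. The mean deviation of the list from the 12 libraries was 0.0879, 0.264 and 0.449 in wild-type controls, above the other 9 libraries except het control replicate 2 (0.144), which lay above wild-type control replicate 1. Of oligodendrocyte precursor genes, 9 of 14 were lower, with a median of -0.19 that became 0.02 without wild-type control replicate 3.

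**Figure D2:**
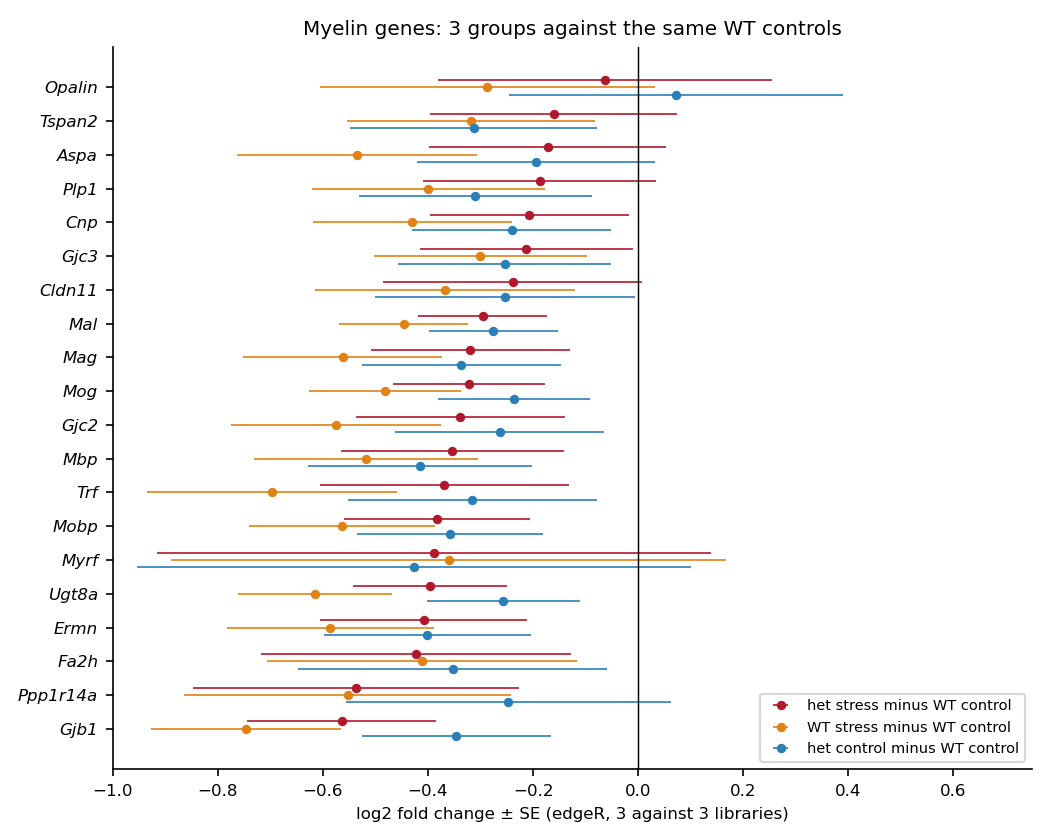
Log2 fold change ± SE (horizontal axis, edgeR) of the 20 myelin genes in het stressed, wild-type stressed and het control mice, each against the same wild-type controls (3 libraries each). All 20 points of the het stressed group lie below 0, with a median of -0.33, and the median of wild-type stressed mice is -0.50.

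Thalamic genes were lower in all 11 tested members, with a median of -0.75, and 3 of 11 had groups that did not overlap (2.66% of all genes did so in that direction). Shox2, a homeobox gene of thalamic neurons, was at 0.257, 0.711 and 0.277 CPM in het stressed and 1.54, 1.40 and 7.00 CPM in wild-type control libraries (-2.97 ± 0.80, SE). Prkcd, a protein kinase C that marks thalamic relay neurons, was at 9.25, 12.5 and 14.03 CPM against 22.6, 17.9 and 72.8 CPM (-1.66 ± 0.49). Ramp3, a receptor-modifying protein, was at 12.5, 20.6 and 11.0 CPM against 32.0, 21.3 and 35.6 CPM (-1.01 ± 0.37). In Shox2 and Prkcd, wild-type control replicate 3 was several times above the other controls. The list's summed level was 61.5 to 162 TPM in wild-type controls and 49.4 to 66.0 TPM in het stressed libraries. The list's median was -0.34 without that library, -1.0 without wild-type control replicate 1 and -0.26 by limma-voom with sample weights. Against the same controls, the median was -0.92 with het alone and -0.71 with stress alone.

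Genes of other neighbouring regions were less even. Of 14 cortical excitatory genes, 11 were higher, with a median of 0.33, but limma-voom with sample weights gave -0.09. The median was 0.14 without wild-type control replicate 3 and 0.96 without replicate 2. Slc17a7, the vesicular glutamate transporter of cortical neurons, was at 188, 257 and 174 CPM in het stressed and 92.4, 249 and 41.5 CPM in wild-type control libraries (0.69 ± 0.97), so the controls alone spanned more than the difference between the groups. Camk2a was at 1265, 1338 and 1362 CPM against 690, 1145 and 1073 CPM (0.45 ± 0.26) and its groups did not overlap. The list's summed level, in which Camk2a had a mean of 412 TPM in het stressed and 280 TPM in wild-type control mice, was 671 to 768 TPM against 333 to 619 TPM. The mean deviation per gene overlapped, at 0.381, 0.616 and 0.259 in het stressed and -0.272, 0.748 and -0.823 in wild-type control libraries. The septum, pallidum and basal forebrain list had 9 of 12 genes lower (median -0.12), and the sign turned without wild-type control replicate 3. Of 13 genes of hypothalamic and neuroendocrine peptides, 11 were lower (median -0.40), and the sign turned without wild-type control replicate 1. Trh, the thyrotropin-releasing hormone precursor, was at 8.14, 8.90 and 9.602 CPM against 22.1, 10.6 and 11.4 CPM (-0.73 ± 0.31). How much tissue of these neighbours each punch held was not tested as a part of any result.

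Choroid plexus genes, which belong to the tissue that secretes cerebrospinal fluid in the ventricles, had the lowest median of all 37 lists, -1.10, with 16 of 16 tested members lower, but they split the het stressed mice. Summed over the list, the level was 126, 125 and 741 TPM in het stressed replicates 1 to 3 and 713, 447 and 572 TPM in wild-type controls. Ttr, the transthyretin of choroid plexus, was at 3.73, 7.90 and 390 CPM in het stressed and 550, 246 and 217 CPM in wild-type control libraries (-1.33 ± 1.71, SE). Kcne2, a potassium channel subunit, was at 0.0428, 0.0418 and 4.71 CPM against 5.55, 2.12 and 1.86 CPM. In both genes, het stressed replicate 3 was at or near the level of the controls and the other replicates near 0. The list's median was -2.67 without het stressed replicate 3 and -0.54 without het stressed replicate 2. Slc16a8, described above, and Enpp2, the lysophospholipase autotaxin (223, 210 and 294 CPM against 329, 311 and 405 CPM, -0.52 ± 0.20), were the 2 members whose groups did not overlap. In Slc16a8, het stressed replicate 3 was as low as the others. With stress alone all 3 libraries were at 72.5 to 143 TPM, and with het alone they spanned 137 to 1045 TPM.

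Ependymal cells, the ciliated lining of the ventricle, showed a like split. Of 17 tested genes, 13 were lower, with a median of -0.59 that ranged from -1.08 to -0.053 over fits without 1 library. Foxj1, the master regulator of motile cilia, was at 7.79, 7.40 and 12.0 CPM in het stressed and 24.5, 11.1 and 11.3 CPM in wild-type control libraries (-0.78 ± 0.34). Wild-type control replicate 1 was well above the other controls, and het stressed replicate 3 lay among the controls. The mean deviation of the list was 1.03 in wild-type control replicate 1 and 0.455 in het stressed replicate 3, against -1.02 to -0.217 in the other 4 libraries. Genes of meninges and fibroblasts were lower in 14 of 15 (median -0.31, and -0.07 by limma-voom with sample weights), with summed levels that overlapped at 80.2 to 95.8 TPM against 83.4 to 119 TPM. Pcolce, which helps to mature procollagen, was at 3.43, 1.96 and 3.28 CPM against 5.66, 3.01 and 4.69 CPM (-0.62 ± 0.27).

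Among immune genes, those of the interferon response and antigen presentation were lower in 21 of 22, with a median of -0.32. B2m, the shared light chain of class I MHC molecules, was at 73.1, 70.7 and 55.3 CPM in het stressed and 92.0, 81.6 and 75.5 CPM in wild-type control libraries (-0.32 ± 0.14, SE). Gbp2, an interferon-induced GTPase, was at 3.55, 3.30 and 2.77 CPM against 5.77, 3.63 and 5.59 CPM (-0.64 ± 0.26). In both genes the groups did not overlap. Wild-type control replicate 1 had the highest mean deviation of the list, 0.660, against -0.164 to -0.0350 in the other 5 libraries, and the median was -0.12 without that library and -0.05 by limma-voom with sample weights. Microglial genes were lower in 11 of 16 (median -0.06), and endothelial and mural genes in 12 of 18 (median -0.10, which became 0.02 without wild-type control replicate 3). The complement gene C1qa was at 81.9, 90.4 and 82.6 CPM against 159, 89.4 and 77.4 CPM (-0.35 ± 0.25), and without wild-type control replicate 1 its value was 0.03. Of 6 tested blood genes, 5 were lower (median -0.33), and without that library the sign turned. Astrocyte genes had a median of 0.02.

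Chaperones of the heat shock and unfolded protein responses were lower in 22 of 22, by a small median of -0.17. Hspa1b, the inducible HSP70, was at 4.54, 14.6 and 11.5 CPM in het stressed and 17.4, 28.0 and 16.8 CPM in wild-type control libraries (-1.02 ± 0.55). Hspb1, a small heat shock protein, was at 10.5, 12.2 and 11.5 CPM against 21.2, 15.5 and 11.1 CPM (-0.48 ± 0.27). Groups did not overlap in Hspa1b and Hsp90b1 only. On the log2(TPM + 1) scale the median of the list was 0.023, or -0.119 relative to that of all genes. Summed over the list, the level overlapped and was not lower, at 5770 to 6871 TPM in het stressed and 5376 to 6594 TPM in wild-type control libraries.

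Genes of the striatal neurons themselves were mostly higher in value, by small amounts. Of the 24 genes shared by medium spiny neurons, 21 were higher (median 0.13), as were 8 of 10 direct-pathway genes (0.09), 7 of 9 indirect-pathway genes (0.07) and 18 of 21 genes of dopamine and cAMP signalling (0.09). Over the fits without 1 library these medians ran from 0.0478 (without wild-type control replicate 1) to 0.345 (without replicate 3) for the shared genes, 0.0265 (without het stressed replicate 1) to 0.161 for the direct pathway and 0.0638 to 0.156 for dopamine and cAMP signalling. The indirect-pathway median changed sign, to -0.0508 without wild-type control replicate 3 and -0.0111 without het stressed replicate 1. Gng7, the G protein subunit that couples dopamine and adenosine receptors to adenylyl cyclase, was at 1316, 1364 and 1317 CPM in het stressed and 795, 1218 and 1083 CPM in wild-type control libraries (0.37 ± 0.26, SE). Adora2a was at 410, 330 and 331 CPM against 330, 308 and 304 CPM (0.19 ± 0.17), a gap of less than 1 CPM between the groups. Drd1 was at 265, 254 and 294 CPM against 259, 236 and 234 CPM (0.16 ± 0.15), and Drd2 at 247, 201 and 202 CPM against 138, 187 and 241 CPM (0.20 ± 0.33), both overlapping. Het control replicate 1 and wild-type control replicate 1, the libraries of lowest length slope, were also the lowest of the 12 in the mean deviation of the medium spiny neuron genes (-0.678 and -0.385).

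Interneurons were read by 13 genes, of which 10 were lower (median -0.09, and 0.04 by limma-voom with sample weights). Pvalb, the calcium buffer of fast-spiking interneurons, was at 102, 131 and 76.1 CPM in het stressed and 209, 158 and 220 CPM in wild-type control libraries (-0.92 ± 0.51). The groups did not overlap, and het controls were at 98.9 to 100 CPM and wild-type stressed mice at 16.4 to 123 CPM, so the wild-type controls lay above all 9 other libraries. Kcns3, given above, and Pvalb thus shared that layout. Pvalb is also made by neurons outside the striatum, among them those of the pallidum and the reticular thalamus. Npy, a peptide of another interneuron class, was at 65.0, 64.5 and 57.4 CPM against 105, 78.5 and 49.4 CPM (-0.32 ± 0.31) with overlap.

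Receptors for serotonin and other monoamines were higher in 15 of 20 (median 0.23). Beside Htr2a, the receptor gene Htr4 was at 7.32, 4.93 and 6.60 CPM in het stressed and 4.56, 3.74 and 5.02 CPM in wild-type control libraries (0.50 ± 0.21, SE). Htr3a, a serotonin-gated ion channel, was at 2.44, 2.22 and 2.49 CPM against 1.37, 1.84 and 1.81 CPM (0.51 ± 0.29), and Htr5a at 8.91, 8.57 and 9.83 CPM against 6.20, 7.98 and 8.47 CPM (0.27 ± 0.17). Groups did not overlap in Htr3a and Htr5a, and did in Htr4. For Htr2a, het controls were at 7.16 to 8.14 CPM and wild-type stressed mice at 12.0 to 13.1 CPM, and wild-type control replicate 2 lay within the range of the wild-type stressed mice. The interaction for Htr2a was 0.53 ± 0.25 and not called. The member with the largest difference went the other way: Adra1d, an alpha-1 adrenoceptor for noradrenaline, was at 1.58, 2.59 and 1.34 CPM against 2.91, 3.80 and 5.31 CPM (-1.12 ± 0.48), with groups that did not overlap.

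The stress axis list, which holds glucocorticoid and mineralocorticoid receptors, their co-chaperones and their target genes, was higher in 15 of 20 (median 0.14). The median was 0.04 without het stressed replicate 3 and 0.02 by limma-voom with sample weights. Pdk4, a glucocorticoid-induced kinase that turns off pyruvate dehydrogenase, was at 14.9, 17.9 and 20.1 CPM in het stressed and 9.77, 13.6 and 14.3 CPM in wild-type control libraries (0.49 ± 0.21). Sgk1, a kinase induced by glucocorticoids, was at 110, 122 and 140 CPM against 104, 89.2 and 99.5 CPM (0.35 ± 0.32). Groups did not overlap in either gene, while the 6 libraries with 1 factor spanned 72.0 to 183 CPM for Sgk1. Crhr1, the receptor of corticotropin-releasing hormone, was at 14.002, 11.0 and 9.32 CPM against 16.8, 12.8 and 15.8 CPM (-0.41 ± 0.22), and Hsd11b1, an enzyme that regenerates active glucocorticoid, was the only member whose groups did not overlap in the lower direction (-0.27). Immediate early genes, which neuronal activity induces, were higher in 23 of 26 (median 0.17), with no member whose groups did not overlap. Nr4a3 was at 11.0, 16.1 and 24.8 CPM against 5.27, 14.5 and 15.3 CPM (0.57 ± 0.39), and the list's median was 0.05 without het stressed replicate 3 and 0.01 by limma-voom with sample weights. Of 12 neurotrophin genes, 7 were higher (median 0.02, with a sign that turned without wild-type control replicate 1), and Ret, the receptor kinase for GDNF, was at 3.94, 4.47 and 4.02 CPM against 5.05, 5.92 and 13.3 CPM (-0.96 ± 0.42).

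**Figure D3:**
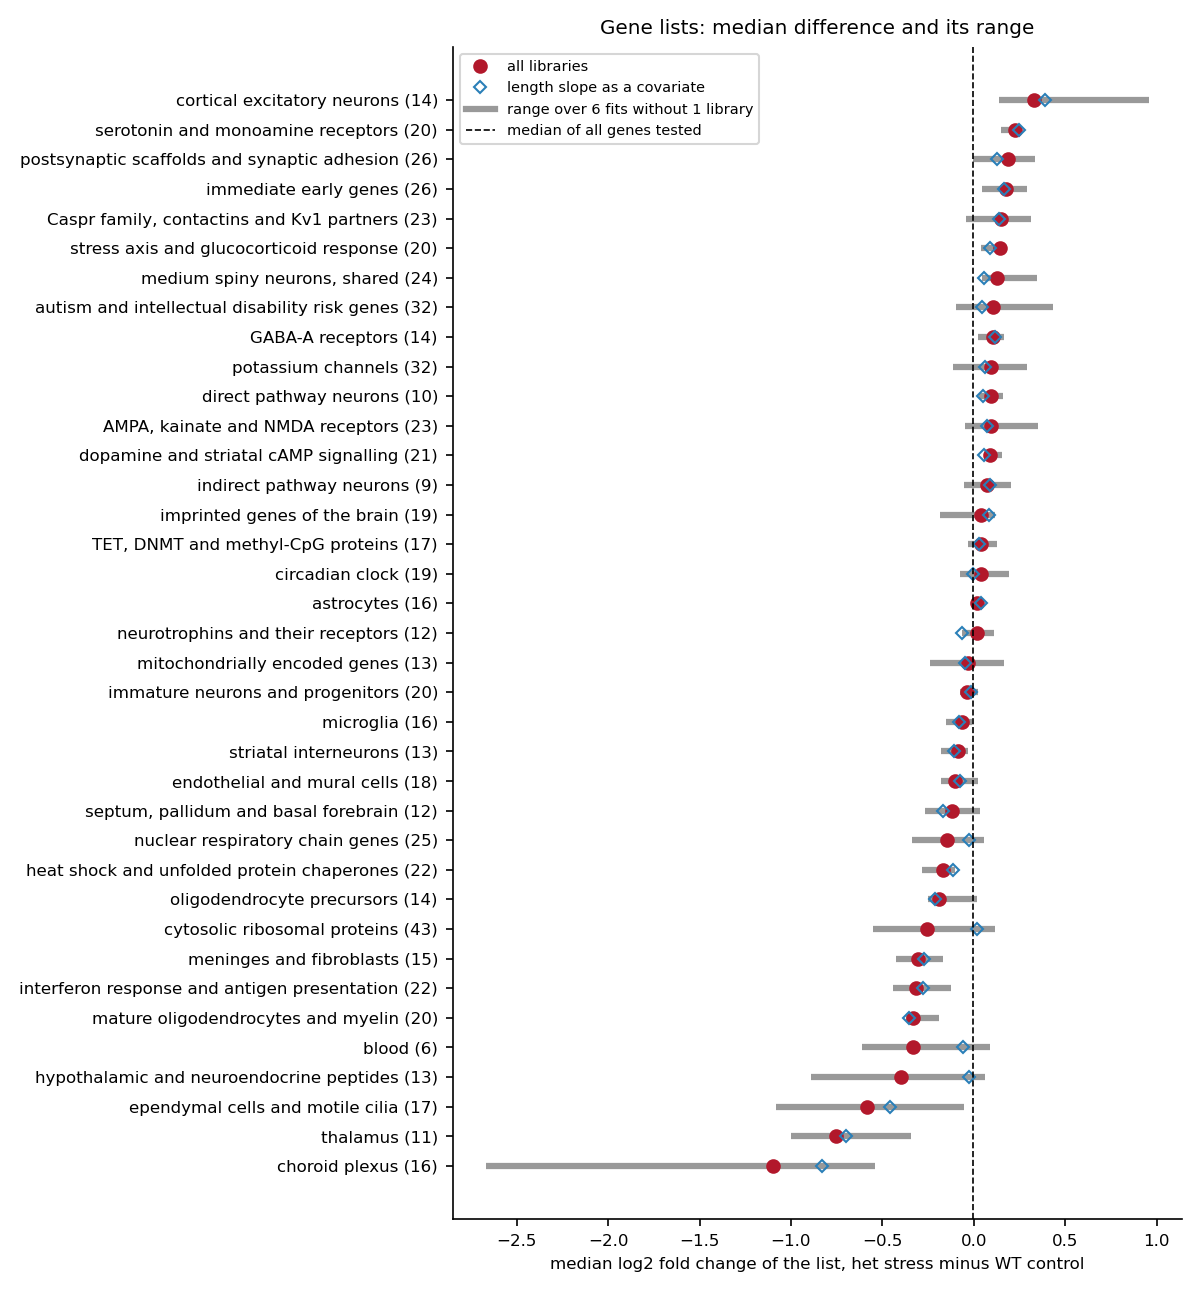
Median log2 fold change of each of 37 gene lists (horizontal axis, het stressed minus wild-type control, number of genes tested in brackets): red points use all libraries, open diamonds add the length slope as a covariate, and grey bars span the 6 fits without 1 library. Choroid plexus (-1.10), thalamus (-0.75) and myelin (-0.33) lie below 0 over their whole bars. So do ependymal, meningeal, interferon, chaperone, interneuron and microglial genes. Other lists, such as cortical and serotonin receptor genes, lie above 0 over their whole bars. The bars of scaffolds, ribosomal proteins and other lists of long or short genes cross 0.

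Partners of Caspr2 were read as its own family, the contactins and the Kv1 channels with their scaffolds. Of 23 tested genes, 17 were higher (median 0.15). Dlg4, the scaffold PSD-95, was at 883, 875 and 897 CPM in het stressed and 636, 801 and 717 CPM in wild-type control libraries (0.30 ± 0.18, SE). Lgi1, a secreted protein of synapses and Kv1 complexes linked to epilepsy, was at 121, 111 and 137 CPM against 101, 110 and 110 CPM (0.20 ± 0.13). Groups did not overlap in these 2 and in Cntnap3 (0.26), a relative of Cntnap2. Without wild-type control replicate 1, the list's sign turned.

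The same library decided the sign of several other lists of long or short genes. Genes for postsynaptic scaffolds and synaptic adhesion were higher in 24 of 26 (median 0.19), autism and intellectual disability risk genes in 26 of 32 (0.11), potassium channels in 21 of 32 (0.10) and AMPA, kainate and NMDA receptors in 18 of 23 (0.09). Their members have median lengths of 3739, 5012, 3740 and 4341 bases, against 2452 bases over all genes tested. Genes of cytosolic ribosomal proteins were lower in 39 of 43 (median -0.26) and nuclear genes of the respiratory chain in 23 of 25 (-0.15), with median lengths of 750 and 979 bases. For all 6 lists the sign of the median turned without wild-type control replicate 1. With the length slope as a covariate, only the ribosomal median turned, to 0.0177. The others kept their sign, at 0.128 for scaffolds, 0.0429 for autism risk genes, 0.0642 for potassium channels and 0.0718 for glutamate receptors. Of the autism risk genes, 19 were higher and 13 lower in that fit, so they lay near all genes. The respiratory chain median was -0.0257. Whether gene length accounts for these differences was not tested. The mean deviation of the ribosomal list was 0.672, 0.171 and -0.776 in wild-type control replicates 1 to 3, and -0.200, 0.0125 and -0.158 in het stressed replicates. For the autism risk list it was -0.653, -0.0752 and 0.423 against 0.165, 0.0607 and 0.0994. In both lists the het stressed libraries lay inside the range of the wild-type controls. GABA-A receptor genes were higher in 11 of 14 (median 0.11), with a median of 0.022 without het stressed replicate 3.

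**Figure D4:**
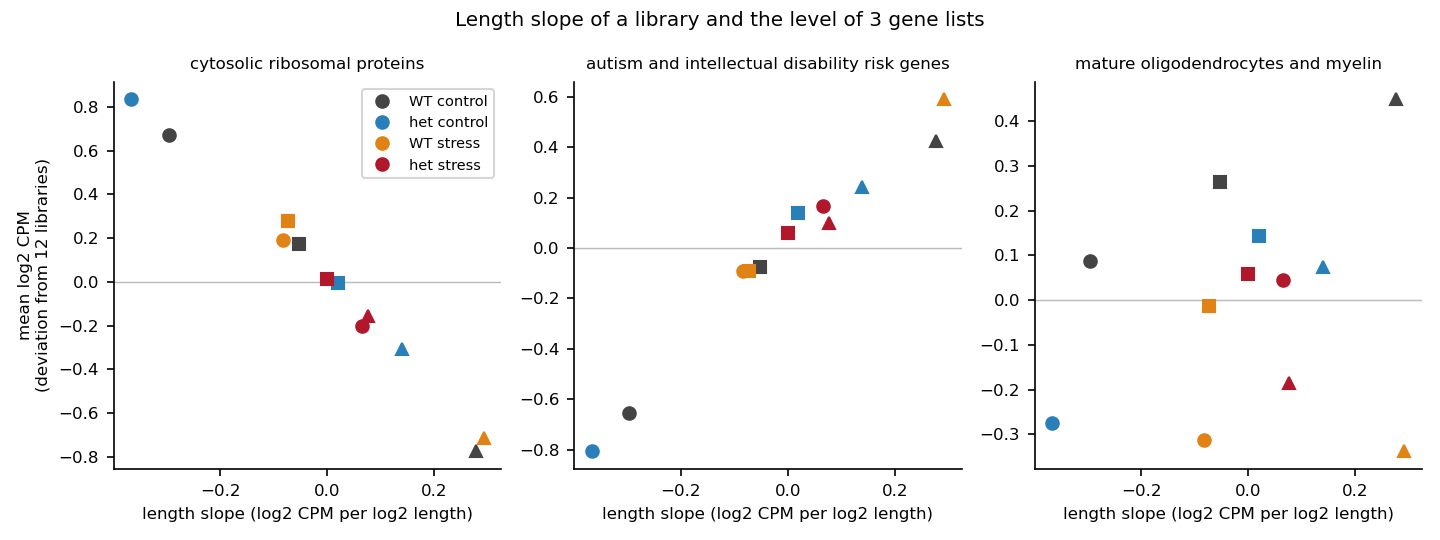
Mean deviation of 3 gene lists (vertical axis, log2 CPM relative to the 12 libraries) against the length slope of the library (horizontal axis, log2 CPM per log2 length), with 1 point per library coloured by group. Over the wild-type controls alone, as the slope rises, ribosomal protein genes fall from 0.672 to -0.776 and autism risk genes rise from -0.653 to 0.423. Myelin genes are at 0.449 in wild-type control replicate 3 and at -0.338 in wild-type stressed replicate 3, whose slopes are alike (0.277 and 0.292).

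Genes that write, erase or bind DNA methylation had values near those of all genes, with 10 of 17 tested TET, DNMT and methyl-CpG genes higher (median 0.04, and -0.03 without het stressed replicate 3). Tet1, which oxidises 5-methylcytosine to 5-hydroxymethylcytosine, was at 4.58, 4.64 and 3.69 CPM in het stressed and 2.14, 3.80 and 8.30 CPM in wild-type control libraries (-0.14 ± 0.51, SE). Dnmt3a, a de novo DNA methyltransferase, was at 39.9, 40.5 and 39.5 CPM against 24.5, 33.6 and 66.4 CPM (-0.06 ± 0.42). In both genes the controls spanned a wider range than the het stressed mice, in the order of their length slopes. Tdg, a glycosylase that removes oxidised methylcytosine, was at 35.8, 34.2 and 36.3 CPM against 26.2, 28.7 and 34.4 CPM (0.25 ± 0.15). Mitochondrially encoded genes (median -0.03), imprinted genes (0.04), circadian clock genes (0.04) and genes of immature neurons (-0.04) had medians near that of all genes, each with a sign that turned in at least 1 of the fits.

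**Figure D5:**
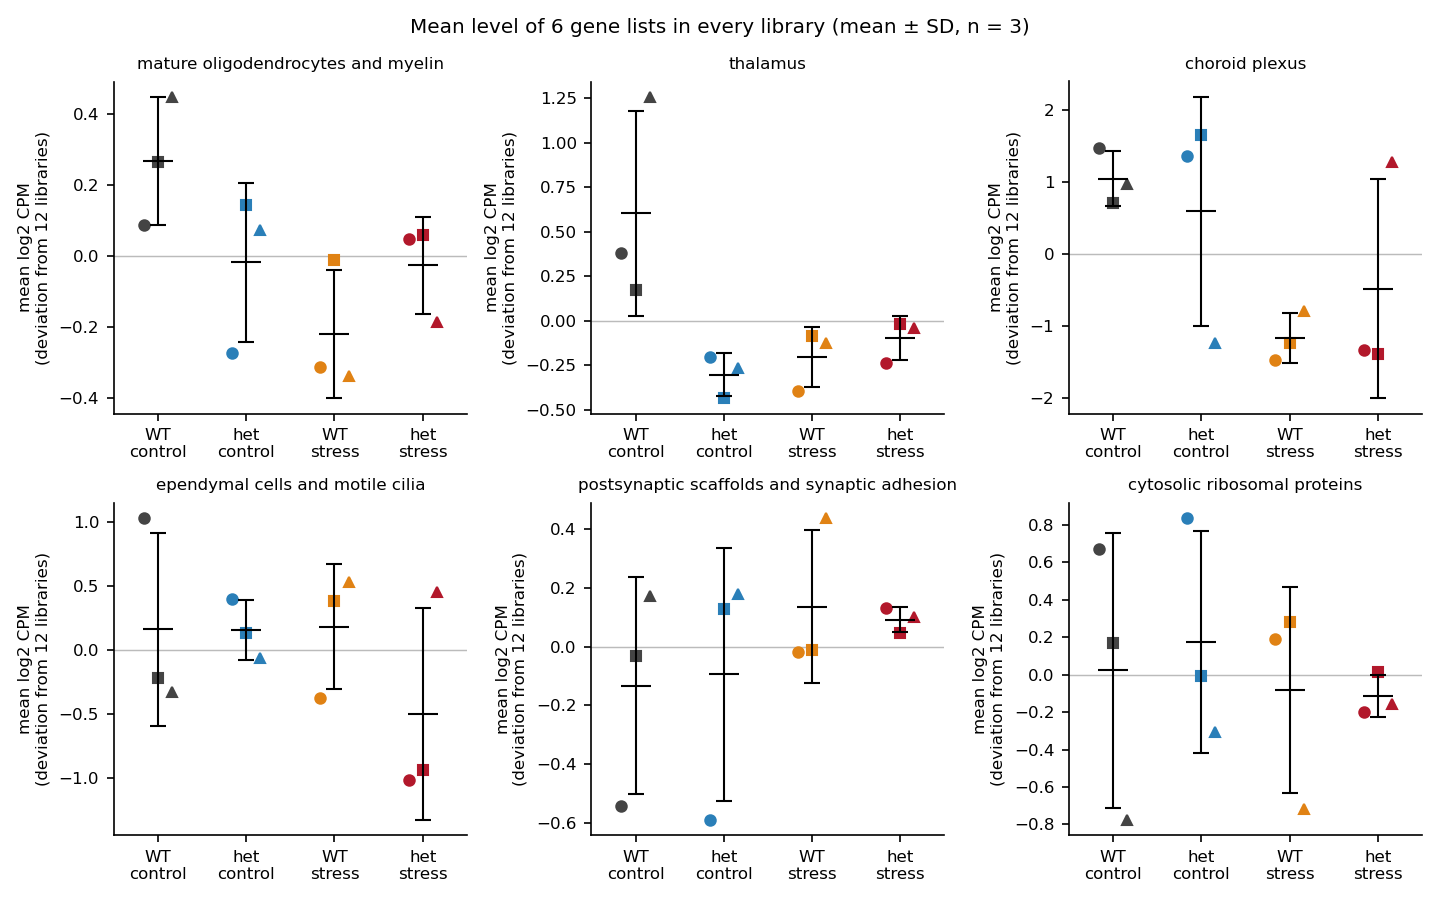
Mean deviation of 6 gene lists (vertical axes, log2 CPM relative to the 12 libraries) in each library by group, with the mean ± SD of 3 libraries in black. For choroid plexus, het stressed replicate 3 (1.28) lies with the wild-type controls (0.711 to 1.47) and the other het stressed replicates at -1.33 and -1.39; for ribosomal proteins the wild-type controls span 0.672 to -0.776.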

How the data were processed

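RNA was sequenced from the striatum of 12 female mice, 1 library per mouse, with random-primed cDNA from about 100 ng of RNA, per the labels. The deposited tables, 1 per library with no pooling, list 37289 genes, each with an expected count, a TPM and an FPKM, per the file headers. The authors made these values with RSEM (alignment by Bowtie, mm9 or NCBIM37), per the submitters' processing notes, which give no versions. Strand use is not stated, so reads of antisense or overlapping genes may be mixed. Transcript tables and the 5hmC data of the series were not used here.

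Expected counts were rounded, filtered with filterByExpr (15955 genes kept), scaled by TMM and tested by robust quasi-likelihood F tests of edgeR 4.0.16 (R 4.3.3) over all 12 libraries with 4 group means, since 3 libraries per group give few degrees of freedom. P-values were two-sided, adjusted by Benjamini-Hochberg over all genes tested and called at 0.05. The biological coefficient of variation was 0.256. Cntnap2 was also compared as log2(TPM + 1). The fit was tested on simulated data with 200 changed genes. Alternatives used DESeq2 1.42.0 and limma 3.58.1 (voom with sample weights, and limma-trend on TPM), other scalings, no filter, a length slope covariate and each library left out. CPM are TMM-scaled. The counting intervals are 95% and cover counting error only.

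The groups, gene lists, tests and most alternatives were chosen with earlier results of these data known. Fits without the libraries of lowest length slope or of low Xist were added after seeing the data. Named genes are Cntnap2, the called gene, the 12 genes of smallest p per direction (at most 2 without a symbol, so 1 was left out), the 2 members of each list with the smallest p, and members named for their role, which were picked with values in view. No pair of replicates was alike within sampling noise. For het control replicate 1, which entered the fit only, the animal number differs between RNA data and label. Symbols were matched for 87.4% of genes through a RefSeq table of GRCm38.p6, and promoters are RefSeq's in that build. The authors' mm9 coordinates were not used here.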

Additional observations from a re-analysis of the deposited data

How the results depend on the processing

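The replicate numbers name a mouse and did not pair the groups: same-numbered libraries deviated with correlations of -0.222, 0.115 and -0.0363, and the replicate block called 1 gene higher (Gm6736) and 0 lower. The count of genes higher, 1 with all libraries, was 2 by DESeq2, 2 by limma-trend on TPM, 26 by limma-voom with sample weights, 0 with only the 6 libraries compared, and 0 to 1 over the fits without 1 library. The count of genes lower was 23 by limma-voom with sample weights and 0 over the fits without 1 library. Genes whose groups did not overlap, 581 higher and 425 lower, numbered 813 to 3161 higher and 703 to 3246 lower over the sets without 1 library, the most without wild-type control replicate 3, and 1384 higher and 1134 lower without both libraries of lowest length slope. With fewer libraries the groups separate more easily by construction, so these counts are not comparable with the full ones. Without a filter on low counts 654 genes were lower, since more genes are counted. The interaction called 75 genes only when those libraries were left out and the length slope was a covariate, a fit that keeps 2 controls of each genotype. The causes of the other shifts were not tested.

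Of 1901 values of named genes under alternatives, 27 changed sign, and none of these genes was called. Over the fits without 1 library, log2 fold changes ran from -0.566 to 0.0273 for C1qa, -1.05 to 0.0365 for Hbb-bs, -0.350 to 0.0788 for mt-Nd3, -0.00123 to 0.159 for mt-Co3, -0.868 to 0.0562 for Ndufb8, -0.504 to 0.0562 for Dscam, -0.958 to 0.0164 for Ngfr, -0.472 to 1.10 for Gabrq, -0.324 to 0.442 for Dnmt3a and -0.488 to 0.521 for Tet1. Sign changes came without wild-type control replicate 1 for the first 5, without replicate 3 for Dscam, Ngfr, Dnmt3a and Tet1, and without het stressed replicate 3 for Gabrq. Without both libraries of lowest length slope, values were 0.026 for C1qa, 0.0329 for Hbb-bs, 0.0767 for mt-Nd3, -0.00218 for mt-Co3 and 0.0532 for Ndufb8, and with the slope covariate added 0.0472 for mt-Nd3 and -0.00883 for mt-Co3. On TPM they were 0.15 for Cntnap2, 0.0954 for Homer3, 0.0397 for mt-Nd3 and 0.0907 for Dnmt3a, where the median of all genes is 0.142, so that Homer3, mt-Nd3 and Dnmt3a stay below all genes (-0.0466, -0.102 and -0.0513). By limma-voom they were -0.0161 for mt-Co3, -0.0897 for Slc17a7, 0.236 for Dnmt3a and 0.205 for Tet1, and with the replicate block 0.0979 for Dnmt3a and 0.0894 for Tet1. Of 666 list medians under alternatives, 45 moved by more than their spread. With TPM medians taken relative to all genes, the sign of 20 of 37 lists turned in a fit without 1 library, a scaling or a length slope fit.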
